A study of Homo sapiens with 6 samples.

Results

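The RNAs described here are 9 noncoding genes of the human cell line K562. RPPH1, SCARNA2 and SNORA71A are small RNAs, SNHG1, SNHG5, SNHG12 and GAS5 are host transcripts of small nucleolar RNAs (snoRNAs), and MALAT1 and NEAT1 are long RNAs retained in the nucleus. They were chosen by name after their values in the comparison below had been seen, so their differences are descriptions and carry no test. Of the 54675 probe sets of the array, sets of short probes that each read 1 stretch of transcript, 35 had an annotation that names 1 of these genes. Of the 35, 17 named the gene alone and 18 named it together with other genes.

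K562 is an established leukaemia line with erythroid features, derived from chronic myeloid leukaemia and labelled as erythroblastic leukemia. The resistant group, 3 arrays, held K562 cells selected stepwise for growth in methotrexate (MTX), a folate antagonist that blocks dihydrofolate reductase, at a dose that the labels write as 10e-5M. The parental group, 3 arrays, held the MTX-sensitive cells they came from. Resistant cells grew in medium lacking glycine, hypoxanthine and thymidine with dialysed serum, and parental cells in Ham's F12. The effect of the medium and that of resistance cannot be told apart. Total RNA was labelled with biotin for the HG U133 PLUS 2.0 array. The labels do not say whether replicates were separate cultures, so errors measure the spread between arrays, which may be technical.

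RNase P is an RNA-protein enzyme that cuts the leader off transfer RNA precursors, and its RNA, RPPH1, is made by RNA polymerase III. Small nucleolar and small Cajal body RNAs guide the methylation and pseudouridylation of ribosomal and spliceosomal RNAs. Most of them are cut out of introns of host genes, whose spliced remains are often short-lived because translation exposes them to nonsense-mediated decay. The small RNAs themselves carry no poly(A) tail, the feature on which the usual labelling of messenger RNA primes.

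Levels are signals divided by the median of the array, so that 1 is the array median, and values below 1 lie in the range of background. Array medians ran between 10.2 and 12.5 in resistant arrays and between 12.7 and 14.3 in parental arrays. An array stood apart in each group. Resistant 3 had Spearman correlations over all probe sets of 0.846 and 0.850 with resistant 1 and resistant 2, which correlated at 0.869 with each other. Parental 1 had 0.856 and 0.849 with parental 2 and parental 3, which correlated at 0.882 with each other. The ratio of 3′ to 5′ signal of the ACTB control, which rises when RNA or its labelling is incomplete, was 1.19, 1.30 and 2.01 in resistant arrays 1 to 3, against 1.50, 1.25 and 1.32 in parental arrays 1 to 3. For GAPDH it was 0.986, 0.996 and 1.28 in resistant arrays, against 1.03, 1.08 and 1.02 in parental arrays. All 8 measured erythroid marker genes were above the array median on every array. The 6 epithelial markers summed to 304.9, 247.6 and 221 array medians in resistant arrays 1 to 3, against 633.6, 332.3 and 265.9 in parental arrays 1 to 3, with EPCAM at 9.53 and CDH1 at 21.8 in parental 1. The 5 measured lymphoid markers summed to 2.84 to 5.25 in resistant arrays and 35.5 to 51.8 in parental arrays. A single gene, CD3D, made up nearly all of the parental sums. It had 0.919, 2.14 and 0.0784 in resistant arrays 1 to 3, against 50.3, 31.9 and 35.2 in parental arrays 1 to 3. CD79A, the other lymphoid marker that was tested, overlapped between the groups. The 6 monocyte and granulocyte markers summed to 24.5, 23.5 and 12.3 in resistant arrays, against 46.7, 65.9 and 62.9 in parental arrays, and the 7 fibroblast markers to 25.2, 19.2 and 14.1 in resistant arrays, against 50.9, 43.6 and 37.4 in parental arrays. Neither sum overlapped between the groups, and LYZ and SPARC made up the larger part of the parental sums. The part of these features in the differences below was not tested.

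Across the 9 genes, the small RNAs separated the groups most widely, the host transcripts had smaller differences, above 0 on the scale of array medians and below 0 on that of 18S rRNA, and the nuclear RNAs differed from one probe set to the next. Of the 35 probe sets, 33 had a mean level of at least 1 and entered the limma fit, and the other 2, 1 each for SNORA71A and NEAT1, did not. Of the 33, 5 were called higher in resistant cells (adjusted p under 0.05 and at least 2-fold), namely 1 each for RPPH1, SCARNA2 and SNORA71A and 2 for MALAT1, and 28 were not called. Over the 26692 probe sets tested, 1.2% were called higher and 1.14% lower. All resistant arrays lay above all parental arrays for 10 of the 33 and below them for 2, against 14.9% and 12.3% of all probe sets tested. Since the genes were selected on this contrast, nothing is read from these counts. RPPH1, SCARNA2 and SNORA71A (1565859_at), with parental means of 0.359, 0.511 and 0.0996, also entered the fit only through their resistant values. Their calls, with all arrays or without single ones, are therefore descriptions. Resistant 3 was the lowest resistant array for 27 of the 33, against 43.3% of all probe sets tested, and parental 1 was the highest parental array for 20 of the 33, against 43.9%.

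RPPH1, on chromosome 14, had a level of 29.8, 36.3 and 5.69 array medians in resistant arrays 1 to 3, against 0.105, 0.107 and 0.866 in parental arrays 1 to 3. All resistant arrays were well above the array median and all parental arrays below it, and within each group replicate 3 lay apart, low in resistant cells and high in parental cells. The means were 23.9 ± 16.1 in resistant and 0.359 ± 0.439 in parental cells (SD, n = 3 each), and the log2 difference was 6.42 (SE 1.04). In RNA from whole cultures, more cells with the RNA and more RNA per cell cannot be told apart. The parental values lie in the background, so the size of that difference is uncertain: it was 5.16 with 0.25 array medians added before log2 and 3.91 with 1 array median added. The call was lost without resistant 1, resistant 2, parental 1 or parental 2, where the log2 difference was 6.07, 5.93, 5.91 and 5.93, with the direction kept.

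SCARNA2, a guide RNA of the Cajal body on chromosome 1, had 22.8, 18.1 and 5.98 array medians in resistant arrays 1 to 3, against 0.420, 0.420 and 0.693 in parental arrays 1 to 3. The order of the arrays was that of RPPH1 in its main feature, since resistant 3 again lay far below the other resistant arrays and far above every parental array. The log2 difference was 4.77 (SE 0.53), with means of 15.6 ± 8.66 in resistant and 0.511 ± 0.158 in parental cells (SD, n = 3 each). With 1 array median added before log2 it was 3.29. Without resistant 3 it was 5.36, and without resistant 2, the array without which the call was lost, 4.56.

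SNORA71A, a snoRNA of the H/ACA class that guides pseudouridylation, lies on chromosome 20 and had 2 probe sets. With 1565859_at the level was 4.59, 4.73 and 2.48 in resistant arrays 1 to 3, against 0.175, 0.0611 and 0.0630 in parental arrays 1 to 3. The groups did not overlap, and the log2 difference of 5.43 (SE 0.49) ran from 5.17 to 5.93 when single arrays were left out. As the parental values lie in the background, it was 3.54 with 0.25 array medians added before log2 and 2.13 with 1 added. The other probe set, 1565858_at, had 1.25, 0.176 and 0.118 in resistant arrays, against 0.126, 0.718 and 0.157 in parental arrays. These overlapped and were below the array median, in the range of background, on every array but resistant 1.

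The control probe sets for ribosomal RNA, which also lacks a poly(A) tail, were read beside the small RNAs. The 5′ control of 18S rRNA had 4.86, 30.8 and 214 array medians in resistant arrays 1 to 3, against 3.94, 5.18 and 4.28 in parental arrays 1 to 3. The middle control had 6.39, 21.0 and 109.7 in resistant arrays, against 3.43, 4.68 and 5.46 in parental arrays, and the 3′ control had 6.58, 7.72 and 42.5 in resistant arrays, against 8.45, 5.19 and 5.65 in parental arrays. Thus 18S signal was very high in resistant 3, raised in resistant 2 at the 5′ and middle controls, and in resistant 1 close to the parental arrays. Resistant 3, the highest array for 18S, was the lowest resistant array for RPPH1 and SCARNA2. In resistant 1, where the geometric mean of the 3 18S controls was 5.89 against 4.86 to 5.09 in parental arrays, RPPH1 had 29.8 and SCARNA2 22.8 array medians.

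The controls of 28S rRNA differed from one another. Its 3′ control had 4.17, 4.09 and 5.07 array medians in resistant arrays 1 to 3, against 0.427, 0.0916 and 0.402 in parental arrays 1 to 3, a step between the groups with little spread in resistant cells. Its 5′ control averaged 19.6 ± 3.57 in resistant and 18.4 ± 3.93 in parental cells, and its middle control 37.0 ± 7.73 in resistant and 32.2 ± 4.46 in parental cells (SD, n = 3 each), with arrays that overlapped. With each array scaled to its 18S controls in place of its median, the median log2 difference over the whole tested array moved to -2.13, against 0.03 after scaling to the array median. On that scale RPPH1, SCARNA2 and SNORA71A (1565859_at) had log2 differences of 4.31, 2.65 and 3.31, the 3 of the 35 above 0. The scaling moved all 35 log2 differences by the same amount, so which stayed above 0 follows from the differences already given. The arrays of all 3 overlapped on that scale, through resistant 3. Signals over the 18S mean were 5.06, 2.13 and 0.0569 for RPPH1 in resistant arrays 1 to 3. In parental arrays 1 to 3 they were 0.0216, 0.0213 and 0.170. For SCARNA2 they were 3.86, 1.06 and 0.0598, against 0.0864, 0.0838 and 0.136.

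**Figure D1:**
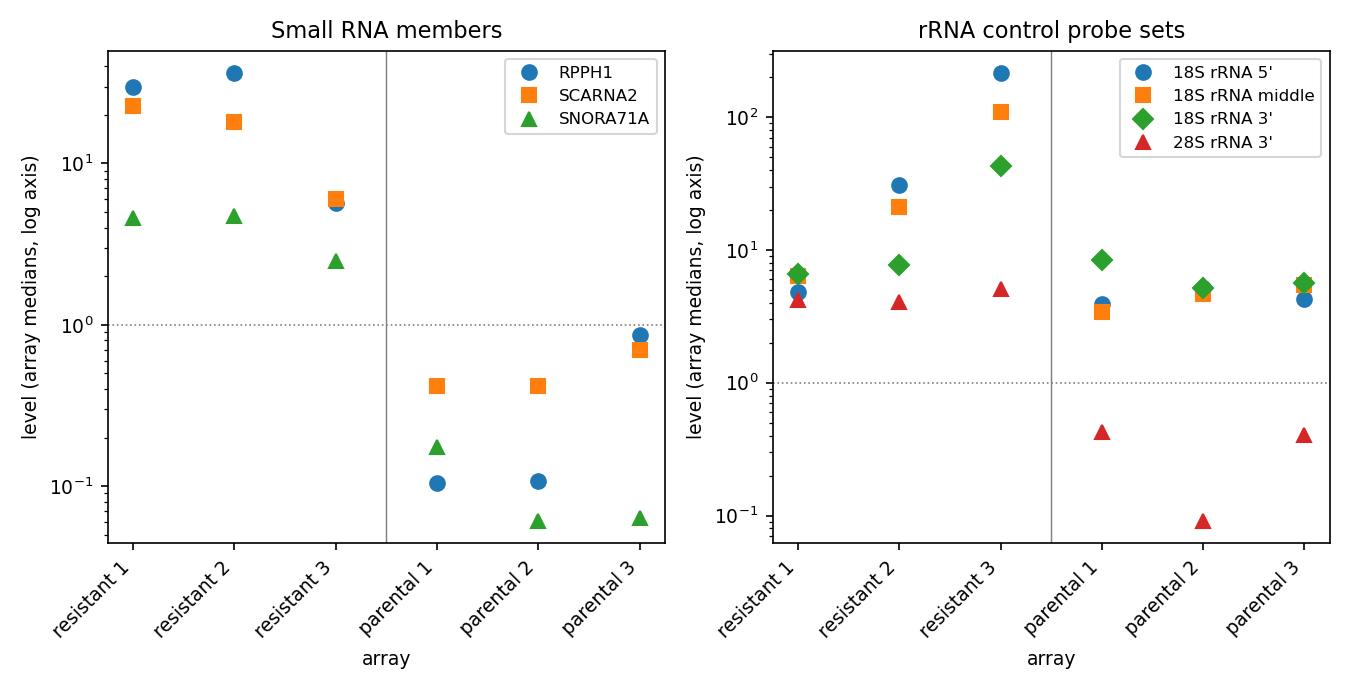
Levels per array in array medians (log axis) for RPPH1, SCARNA2 and SNORA71A (1565859_at; left panel) and for the 18S and 28S 3′ rRNA control probe sets (right panel), with 3 resistant arrays left of 3 parental arrays and 1 point per array. RPPH1 and SCARNA2 stood at 5.69 and 5.98 in resistant 3, the array in which the 18S 5′ control reached 214, and the 28S 3′ control stood at 4.09 to 5.07 in all resistant arrays.

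Small RNAs outside the 9 genes were read in the same arrays. Of 22 probe sets that name only small RNAs and none of the 9 genes, 12 were tested. Of the 12, 2 were called higher and 1 lower, against 1.2% and 1.14% of all probe sets tested. All resistant arrays lay above all parental arrays for 6, against 14.9% of all. Their median log2 difference was 1.07, against 0.03 over all tested probe sets. For the 9 small RNA genes with a tested probe set of their own the median was 1.09. On the 18S scale it was -1.02, against -2.10 over all genes. Among these 9 genes, 2 were called higher and 1 lower by limma, against 153 and 174 of 11810 genes overall. SNORA74A and SCARNA17, with parental means of 0.127 and 0.801, entered the test only through their resistant values. The probe set called lower, with a resistant mean of 0.242, entered it only through its parental values. Such entry favours a difference between the groups, so nothing is read from these counts of calls and separations.

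SNORA74A, another pseudouridylation guide of the H/ACA class, was tested with 1567681_at. It had 3.11, 3.97 and 0.843 array medians in resistant arrays 1 to 3, against 0.259, 0.0763 and 0.0472 in parental arrays 1 to 3 (log2 difference 4.48, SE 0.81, limma adjusted p = 0.0472). Its other probe sets, 1567679_at and 1567682_x_at, were not tested, and the groups overlapped in the former only. SNORA21, also of that class, had 7.59, 7.50 and 4.19 in resistant arrays, against 1.49, 1.40 and 1.83 in parental arrays (log2 difference 1.99, SE 0.30, limma adjusted p = 0.028). In both, resistant 3 was the lowest resistant array. All parental values of SNORA74A lie in the background, and it entered the test through its resistant values, so its call is a description. The size of its difference is uncertain: it was 2.77 with 0.25 array medians added before log2 and 1.58 with 1 added. SNORD114-3, a C/D snoRNA of the imprinted cluster on chromosome 14, went the other way, with 0.285, 0.384 and 0.0588 in resistant arrays, against 3.86, 4.99 and 5.50 in parental arrays (log2 difference -4.67, SE 0.69, limma adjusted p = 0.0254). Its resistant values lie in the background and it entered the test through its parental values, so its call is a description too. The log2 difference was -3.40 with 0.25 array medians added and -2.22 with 1 added. Over the alternatives, the adjusted p ran from 0.00564 to 0.172 for SNORA74A, from 0.0108 to 0.132 for SNORA21 and from 0.000598 to 0.134 for SNORD114-3. All 3 calls were lost without parental 2, parental 3, resistant 1 or resistant 2, and that of SNORA74A also without resistant 3, while the log2 differences without single arrays, with nothing added, stayed within 3.96 to 5.18, 1.84 to 2.27 and -5.19 to -3.84.

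The remaining small RNAs did not pass. A probe set that names 5 genes of the SNORD3 family (U3, which acts in the first cuts of the ribosomal RNA precursor) had 58.8, 57.8 and 7.57 in resistant arrays 1 to 3, against 2.18, 0.954 and 3.59 in parental arrays 1 to 3 (log2 difference 3.92, SE 0.90, limma adjusted p = 0.0883). Its arrays did not overlap, and its drop in resistant 3 was larger than that of RPPH1. SCARNA17 had 10.2, 9.31 and 4.75 in resistant arrays, against 1.22, 1.08 and 0.102 in parental arrays (adjusted p = 0.103), and SNORD89 had 9.64, 8.67 and 7.69 in resistant arrays, against 2.61, 4.05 and 3.99 in parental arrays (adjusted p = 0.061). The parental mean of SCARNA17 was 0.801, so it entered the test through its resistant values. RNA45SN5, the 45S ribosomal precursor and so a long RNA outside these counts, had with the brighter of its 2 probe sets 18.7, 18.3 and 5.16 in resistant arrays, against 3.13, 7.55 and 5.21 in parental arrays, which overlapped in resistant 3. The log2 differences of SNORA72, SCARNA15, SNORA68 and SNORD8 were 1.09, 0.65, -0.08 and -0.51, with adjusted p of 0.388, 0.300, 0.917 and 0.726. In 9 of the 12 tested probe sets for small RNAs resistant 3 was the lowest resistant array.

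SNHG1, SNHG5, SNHG12 and GAS5 belong to the host genes whose transcripts often start with a run of pyrimidines, the 5′ terminal oligopyrimidine tract that couples a transcript to growth-dependent translation. RefSeq promoter entries (assembly GRCh38.p14) were found for 5 of the 9 genes, these 4 and MALAT1, and not for RPPH1, SCARNA2, SNORA71A and NEAT1. The stretches below, 60 bases each on the minus strand, begin 20 bases before the annotated start and are shown because they hold the start itself. Capitals mark a run of at least 5 C or T opened by a C within 5 bases of the start on the sense strand.
SNHG1: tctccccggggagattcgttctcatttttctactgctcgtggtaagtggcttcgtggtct
SNHG5: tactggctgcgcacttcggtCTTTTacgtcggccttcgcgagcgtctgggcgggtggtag
SNHG12: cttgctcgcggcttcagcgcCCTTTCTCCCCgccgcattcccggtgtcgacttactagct
GAS5: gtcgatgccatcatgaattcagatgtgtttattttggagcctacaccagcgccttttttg
They lie at chr11:62855846-62855905, chr6:85678694-85678753, chr1:28581834-28581893 and chr1:173869006-173869065. The run opened exactly at the annotated start of SNHG5 and SNHG12, with 5 and 11 bases, and was found at neither of the other annotated starts. The search looked only within 5 bases of the annotated start, so a run that opens elsewhere in SNHG1 or GAS5 would be missed. A run by this rule was present at 21.1% of the 35116 promoters in the table and at 18 of 45 host genes outside the 4. TATAA, on either strand, was found 30 bases before the start of SNHG5 and 28 before that of SNHG12, and inside the transcript of SNHG1, against 20.4% of all promoters. CCAAT, on either strand, was found in the windows of SNHG5 (1 match) and GAS5 (3 matches), against 34.6% of all promoters, and CACGTG, held by 7.26%, in none of the 4.

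GAS5, named for its rise in growth-arrested cells, is the host of a row of C/D snoRNAs on chromosome 1 and had 5 probe sets. The only 1 that names GAS5 alone, 1560402_at, had 3.71, 3.73 and 3.07 array medians in resistant arrays 1 to 3, against 1.83, 1.63 and 2.61 in parental arrays 1 to 3. Every resistant array was above every parental array, by little in the case of resistant 3 and parental 3. The log2 difference was 0.82 (SE 0.26).
The other 4 probe sets name GAS5 together with 8 snoRNAs of its introns (SNORD44, SNORD47, SNORD74, SNORD76, SNORD77, SNORD79, SNORD80 and SNORD81). With 224741_x_at the level was 459, 451 and 375 in resistant arrays, against 297, 227 and 198 in parental arrays, and with 224841_x_at it was 431, 396 and 386 in resistant arrays, against 255, 200.2 and 192 in parental arrays. Both separated the groups, with log2 differences of 0.85 (SE 0.24) and 0.92 (SE 0.22). With 227517_s_at the level was 119.7, 109.8 and 71.6 in resistant arrays, against 119.8, 48.2 and 51.5 in parental arrays, and with 228238_at it was 90.8, 79.6 and 54.9 in resistant arrays, against 57.8, 23.9 and 29.4 in parental arrays. In these the groups overlapped through parental 1 and resistant 3. Their log2 differences were 0.55 (SE 0.42) and 1.10 (SE 0.39), and 0.98 and 1.47 without parental 1. None of the 5 was called, and all 5 log2 differences were above 0 in the fits without single arrays, with values as deposited and after quantile normalization, but not when scaled to 18S.

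SNHG1, on chromosome 11, was read by a probe set that names 9 genes, SNHG1 and the C/D snoRNAs SNORD22 and SNORD25 to SNORD31. The level was 228, 217 and 226 in resistant arrays 1 to 3, against 163, 145 and 149.9 in parental arrays 1 to 3. It was the tightest of the host probe sets within resistant cells, at 224 ± 5.72, against 153 ± 9.65 in parental cells (SD, n = 3 each), and resistant 3 did not fall away. The log2 difference was 0.55 (SE 0.19), between 0.51 and 0.60 without single arrays.

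SNHG5, on chromosome 6, was read by a probe set that also names SNORD50A and SNORD50B. The level was 505, 415 and 459.9 in resistant arrays 1 to 3, against 371, 261 and 260.0 in parental arrays 1 to 3. The groups did not overlap, parental 1 came closest to the resistant arrays, and the log2 difference was 0.65 (SE 0.24), or 0.82 without parental 1. A separate probe set for SNORD50A and SNORD50B without the host had 8.37, 10.1 and 4.95 in resistant arrays, against 4.61, 2.77 and 3.70 in parental arrays (log2 difference 1.05, SE 0.35, limma adjusted p = 0.179).

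SNHG12, on chromosome 1, had 3 probe sets, each of which also names SNORA16A, SNORA44 and SNORA61. With 223773_s_at the level was 53.9, 45.4 and 46.6 in resistant arrays 1 to 3, against 69.6, 26.8 and 27.2 in parental arrays 1 to 3. Parental 1 was above every resistant array and the other 2 parental arrays below them. The same held in outline for 223774_at, with 28.3, 21.7 and 13.2 in resistant arrays, against 34.0, 10.0 and 12.2 in parental arrays. With 228990_at the level was 25.3, 23.8 and 8.98 in resistant arrays, against 25.7, 12.4 and 13.9 in parental arrays, so that resistant 3 was the lowest array of all. The log2 differences were 0.39 (SE 0.41), 0.32 (SE 0.53) and 0.10 (SE 0.49). Without parental 1 they were 0.85, 0.86 and 0.42, and without both parental 1 and resistant 3, a setting chosen after seeing the data, 0.87, 1.16 and 0.90. The last of the 3 turned to -0.11 with values as deposited and ran from -0.17 to 0.58 without single arrays, and 223774_at ran from -0.02 (without parental 2) to 0.86.

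**Figure D2:**
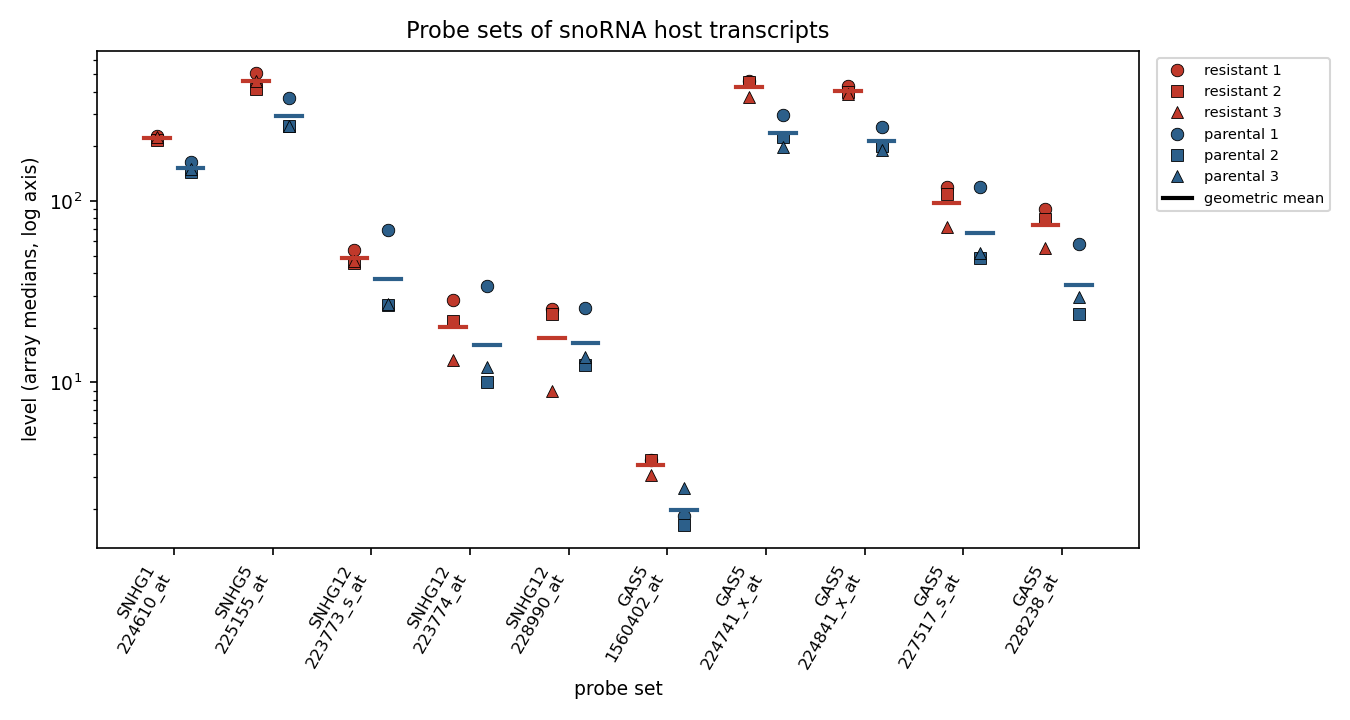
Levels in array medians (log axis) of the 10 probe sets that name SNHG1, SNHG5, SNHG12 or GAS5, with resistant arrays (red) left of parental arrays (blue), 1 symbol per replicate and bars at the geometric means. Levels of different probe sets cannot be compared with each other. The groups separate for SNHG1 and SNHG5 and for 3 of the 5 GAS5 probe sets, and parental 1 (circle) lies at or above the resistant arrays for SNHG12.

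Host genes outside the 9, read by probe sets that name 1 gene, did not pass the test. Most of those tested were protein-coding genes, such as NCL, EEF2, TPT1 and HSPA9, so the counts do not describe noncoding hosts alone. Of 23 host genes with a tested probe set of their own, none was called by limma and 19 had a log2 difference above 0. At an unadjusted p under 0.05, 7 were higher and 0 lower. Over all 11810 genes, 6075 were above 0, 1185 higher and 1177 lower by these counts. The resistant arrays lay above the parental arrays for 13 of the 23 and below them for 0, against 1898 and 1673 of all genes. With values as deposited, 14 of the 23 were above 0, against 4217 of all genes. Their median log2 difference was 0.34, against 0.02 over all 11810 genes, with 0.17 after quantile normalization, 0.14 with values as deposited, where the median of all genes was -0.18, and -1.77 on the 18S scale, where it was -2.10. With the unpaired test named in the methods, 1 gene passed over all the lists together.
ZFAS1, the host of C/D snoRNAs of the SNORD12 family, averaged 369.7 ± 71.4 in resistant and 177 ± 19.4 in parental cells (SD, n = 3 each; log2 difference 1.05, SE 0.24, limma adjusted p = 0.0863). SNHG32 averaged 189 ± 36.6 in resistant and 86.4 ± 3.76 in parental cells (log2 difference 1.11, adjusted p = 0.0691), and SNHG19 69.6 ± 10.5 in resistant and 31.5 ± 8.70 in parental cells (log2 difference 1.17, adjusted p = 0.089). SNHG4 averaged 3.59 ± 1.94 in resistant and 1.14 ± 0.280 in parental cells (log2 difference 1.53, adjusted p = 0.152), and SNHG17 30.0 ± 6.21 in resistant and 19.04 ± 1.30 in parental cells (log2 difference 0.64, adjusted p = 0.225). With the probe sets used for these 5 genes the groups did not overlap. Another tested probe set that names SNHG17 alone, 65588_at, did overlap (log2 difference 0.30, limma adjusted p = 0.633). SNHG33 and DANCR had log2 differences of -0.13 and 0.02, with arrays that overlapped.
An overlapping view came from 29 tested probe sets, for 19 genes, that name a noncoding host, alone or with its small RNAs. Several genes, ZFAS1 and SNHG32 among them, were already counted above. Of the 29, 15 had all resistant arrays above all parental arrays and 0 the reverse, against 14.9% and 12.3% of all probe sets tested. A log2 difference above 0 was found for 23, against 13884 of all 26692. Of the 29, 1 was called higher, against 1.2% of all. That probe set, 239754_at, names SNHG29 with SNORD49A, SNORD49B and SNORD65 and had 12.2, 12.7 and 8.26 in resistant arrays 1 to 3, against 2.92, 3.78 and 3.67 in parental arrays 1 to 3 (log2 difference 1.66, SE 0.26, limma adjusted p = 0.0302, from 0.00892 to 0.145 over the alternatives). The call was lost without parental 2, parental 3, resistant 1 or resistant 2, where the log2 difference stayed within 1.55 to 1.86. A second probe set with the same 4 names, 225065_x_at, had a log2 difference of 0.75 (adjusted p = 0.232). In 26 of the 29, resistant 3 was the lowest resistant array.

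MALAT1, a long RNA of the nuclear speckles transcribed from chromosome 11, had 12 probe sets, all of which name it alone. They did not move together: the log2 differences ran between -0.15 and 1.59, with a median of 0.31. Of the 12, 11 are marked x or s by the manufacturer, for sets that can also bind related or shared sequences, and 224559_at is not. The median over the 12 was 1.06 without both parental 1 and resistant 3.
The 2 that were called were 224559_at and 228582_x_at. With 224559_at the level was 29.6, 33.4 and 25.1 in resistant arrays 1 to 3, against 8.90, 9.24 and 11.0 in parental arrays 1 to 3. With 228582_x_at it was 9.22, 11.2 and 15.3 in resistant arrays, against 3.51, 3.76 and 4.42 in parental arrays. Both separated the groups with little spread in parental cells, and in the second resistant 3 was the highest array of all. Both were 1.59 higher on the log2 scale (SE 0.22 and 0.26). Leaving out single arrays kept them between 1.50 and 1.70 and between 1.39 and 1.76. The call of 224559_at was then lost without resistant 1, resistant 2, parental 2 or parental 3, and that of 228582_x_at without any 1 of the 6 arrays, while the differences stayed within these ranges. Scaled to 18S they were -0.52 and -0.53, above the median shift of -2.13 of all probe sets.
The other 10 overlapped between the groups. The probe set with the highest mean level, 1558678_s_at, had 69.8, 109 and 29.2 in resistant arrays 1 to 3, against 106, 49.4 and 51.6 in parental arrays 1 to 3. Resistant 3 was its lowest array and resistant 2 its highest, with parental 1 close below it. The log2 difference was -0.10 (SE 0.55), and 0.26 without parental 1, 0.43 without resistant 3 and 0.79 without both.
With 224558_s_at the level was 45.8, 54.2 and 25.3 in resistant arrays, against 102, 18.8 and 18.8 in parental arrays, so that parental 1 was far above all others and parental 2 and 3 below all others. The log2 difference was 0.26 (SE 0.71) with all arrays, 1.08 without parental 1 and 1.41 without both. The opposite holds for 224567_x_at, with 28.3, 41.0 and 12 in resistant arrays, against 10.4, 23.6 and 27.3 in parental arrays, and for 226675_s_at, with 8.58, 13.9 and 3.22 in resistant arrays, against 4.59, 9.01 and 12.6 in parental arrays. In these parental 1 was the lowest parental array, and the log2 differences were 0.35 (SE 0.56) and -0.15 (SE 0.62).
Parental 1 was the highest parental array in 7 of the 12, and resistant 3 the lowest resistant array in 10. The remaining 6 probe sets had log2 differences from 0.00 (231735_s_at) to 0.97 (227510_x_at), with standard errors from 0.41 to 0.57. Without both parental 1 and resistant 3 all 12 log2 differences were above 0, against 10 of 12 with all arrays and 7 of 12 with values as deposited.

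**Figure D3:**
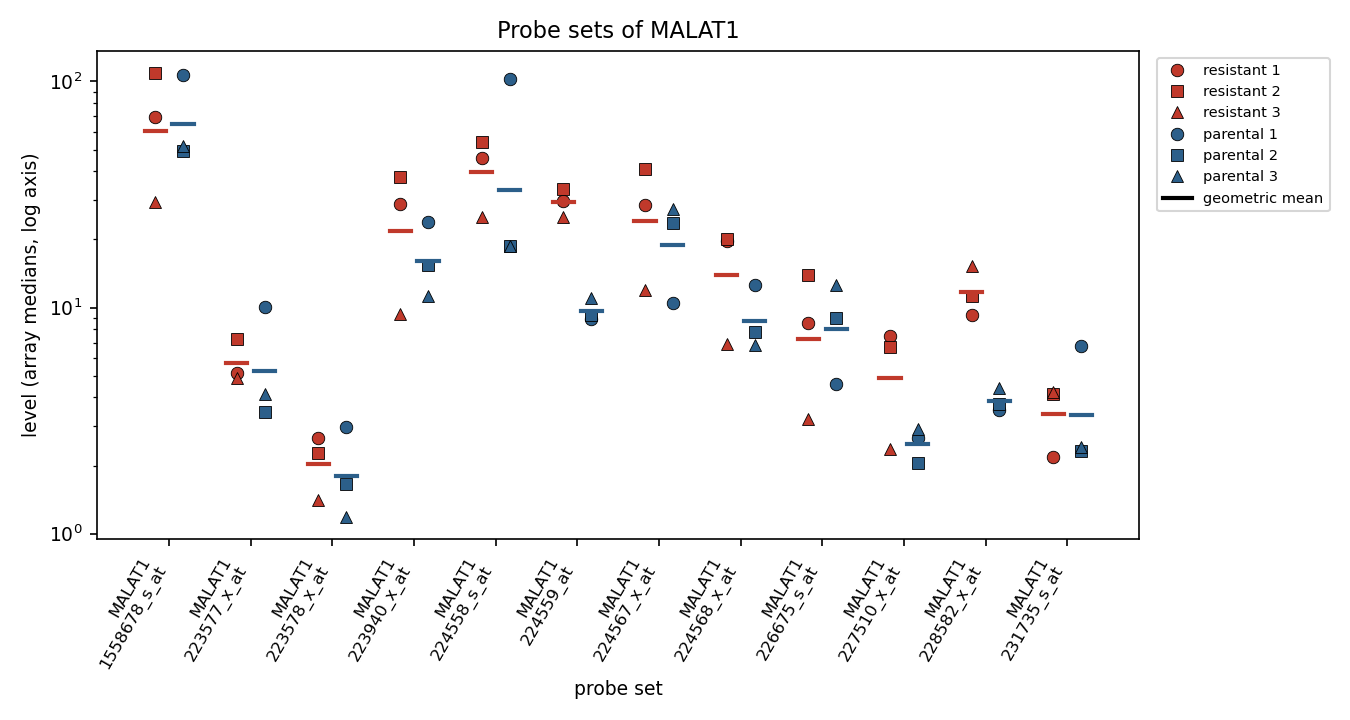
Levels in array medians (log axis) of the 12 MALAT1 probe sets, with resistant arrays (red) left of parental arrays (blue), 1 symbol per replicate and bars at the geometric means. The groups separate for 224559_at and 228582_x_at, while in 224558_s_at parental 1 (circle) stands at 102 and the other parental arrays at 18.8.

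NEAT1, the RNA on which paraspeckles are built, lies next to MALAT1 on chromosome 11 and had 9 probe sets, each of which also names MIR612. The log2 differences ran between -1.84 and 1.09, and the lowest of them came with a separation of the groups. With 225239_at the level was 5.59, 8.82 and 3.97 in resistant arrays 1 to 3, against 23.7, 15.6 and 24.2 in parental arrays 1 to 3. With 238320_at it was 2.33, 3.60 and 2.63 in resistant arrays, against 4.68, 4.38 and 6.72 in parental arrays. All resistant arrays were below all parental arrays in both, and parental 1 was not out of line. The log2 differences were -1.84 (SE 0.36) and -0.88 (SE 0.28), and -1.47 and -0.91 without both parental 1 and resistant 3. Neither was called at the stated settings, and the first was called lower, with all 6 arrays, under 4 of the alternatives (a trended robust prior, a filter at 2 array medians, and 0.25 or 1 array median added).
A second pattern was seen with 224565_at and 224566_at. The level of 224565_at was 62.1, 75.4 and 37.3 in resistant arrays, against 159.6, 47.9 and 36.7 in parental arrays, and that of 224566_at 71.7, 88.8 and 33.6 in resistant arrays, against 146, 25.4 and 30.8 in parental arrays. Parental 1 was above every other array in both, as in MALAT1 224558_s_at, and parental 3 was below every resistant array in both, parental 2 in the second. The log2 differences were -0.23 (SE 0.59) and 0.30 (SE 0.73) with all arrays, and 0.71 and 1.51 without both parental 1 and resistant 3. With 214657_s_at the level was 14.0, 13.6 and 3.17 in resistant arrays, against 13.3, 3.02 and 3.81 in parental arrays. Parental 1 was again far above the other parental arrays, but it lay below resistant 1 and resistant 2. The log2 difference was 0.66 (SE 0.78), or 2.02 without both parental 1 and resistant 3.
A further pattern was seen with 234989_at, at 23.1, 30.6 and 7.99 in resistant arrays, against 17.1, 34.8 and 60.3 in parental arrays, and with 227062_at, at 3.54, 4.86 and 2.01 in resistant arrays, against 0.958, 4.85 and 8.90 in parental arrays. Here parental 1 was the lowest parental array and parental 3 the highest array of all, and the log2 differences were -0.89 (SE 0.64) and -0.09 (SE 0.82). The last 2, 239269_at and 220983_s_at, had log2 differences of 0.16 and 1.09 at mean levels of 1.57 and 0.373 array medians, and the second was not tested. Resistant 3 was the lowest resistant array in 8 of the 9.

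**Figure D4:**
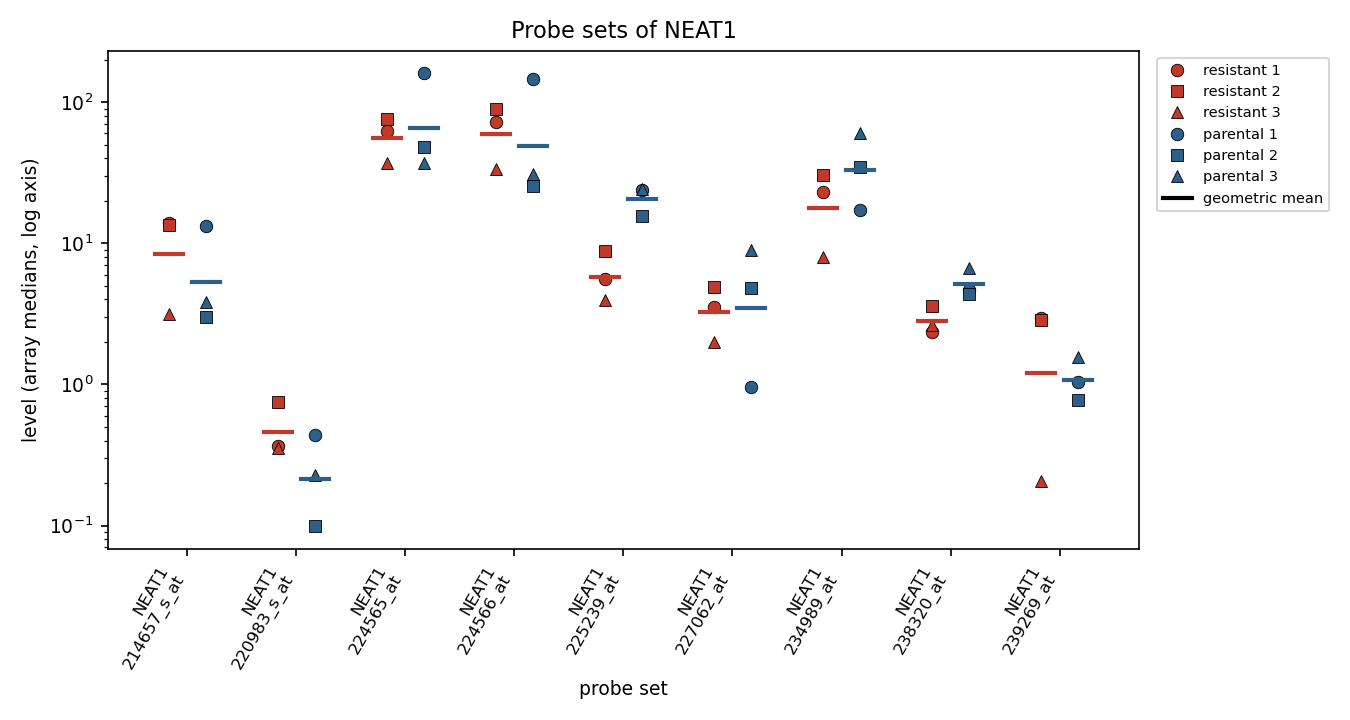
Levels in array medians (log axis) of the 9 NEAT1 probe sets, with resistant arrays (red) left of parental arrays (blue), 1 symbol per replicate and bars at the geometric means. Resistant arrays lie below parental arrays for 225239_at and 238320_at, and parental 1 (circle) stands at 159.6 and 146 for 224565_at and 224566_at.

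Leaving out the 2 arrays that stood apart moved most of the differences up. Resistant 3 was the lowest resistant array for 27 of the 33 tested probe sets and parental 1 the highest parental array for 20. For such probe sets leaving these arrays out raises the difference by itself, so nothing is read from the move. The log2 difference was above 0 for 28 of the 35 probe sets with all arrays and for 31 of 35 without them, and the median over the 35 was 0.39 with all arrays and 1.08 without them. Those of RPPH1, SCARNA2 and SNORA71A (1565859_at) were then 6.76, 5.23 and 6.23, and 9 of the 35 probe sets were called higher, against 5 with all arrays. Calls rose over the whole array too, to 526 higher and 488 lower, against 319 and 303 with all arrays. The 4 of the 35 that stayed below 0 were all NEAT1 probe sets.

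**Figure D5:**
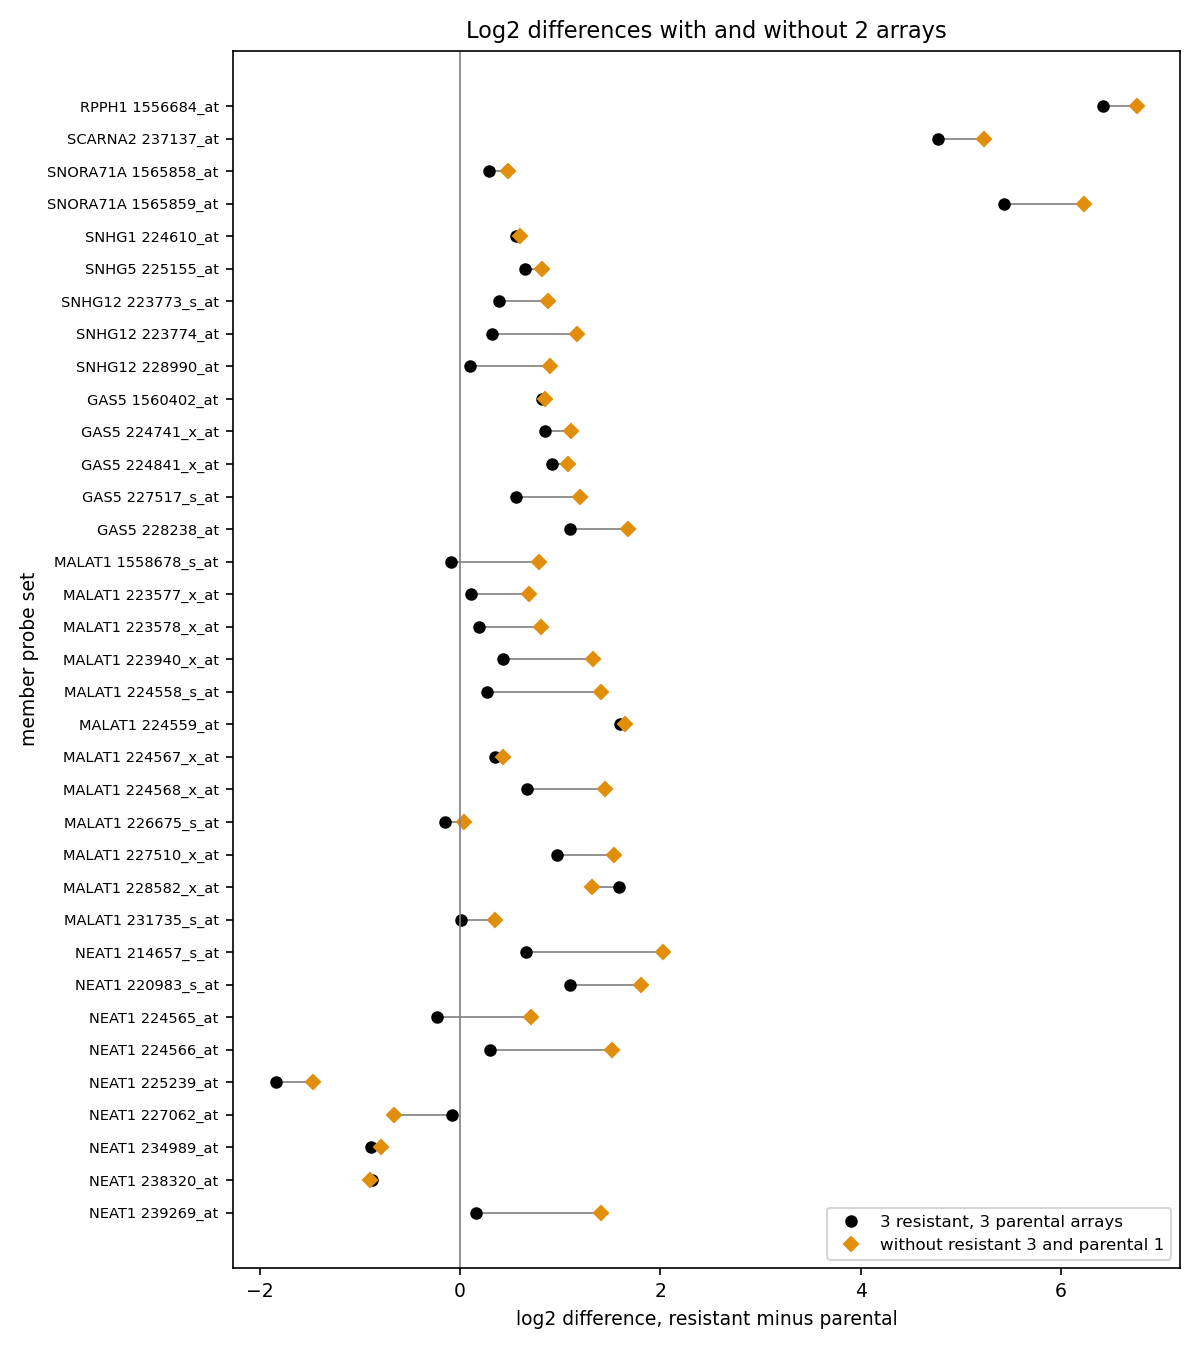
Log2 difference (resistant minus parental) of each of the 35 probe sets with all 6 arrays (black circles) and without resistant 3 and parental 1 (orange diamonds), joined by a line. RPPH1, SCARNA2 and SNORA71A 1565859_at stay between 4.77 and 6.76, most MALAT1 probe sets move up, and NEAT1 225239_at stays at -1.84 and -1.47.

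Genes whose products work with these RNAs were counted from lists, with 1 probe set per gene, the brightest on average. Of 10 tested proteins of RNase P and RNase MRP, 1 was called higher and none lower, with a median log2 difference of -0.01. The called gene was POP1, the largest protein of both enzymes, at 11.99 ± 0.955 array medians in resistant and 4.40 ± 0.488 in parental cells (SD, n = 3 each; log2 difference 1.45, SE 0.21, limma adjusted p = 0.0222, from 0.00747 to 0.141 over the alternatives). The call was lost without resistant 1, resistant 2, resistant 3, parental 2 or parental 3, with log2 differences within 1.38 to 1.53.
RPP25, which binds the RNase P RNA, had 22.96 ± 7.90 array medians in resistant and 6.27 ± 3.28 in parental cells (log2 difference 2.01, SE 0.53, adjusted p = 0.117), and POP4 had 26.0 ± 2.45 in resistant and 44.9 ± 11.0 in parental cells (log2 difference -0.76, SE 0.25, adjusted p = 0.174). Both were chosen after their values were seen.
None of the 30 tested genes of the RNA polymerase III machinery was called by limma, with 7 higher and 1 lower at an unadjusted p under 0.05, all resistant arrays above all parental arrays for 13, and a median log2 difference of 0.33 against 0.02 over all genes. Over all 11810 genes, 1185 were higher and 1177 lower at that p, and the resistant arrays lay above the parental arrays for 1898. With values as deposited the median of the 30 was 0.13 and that of all genes -0.18, and on the 18S scale they were -1.78 and -2.10. GTF3C3, a subunit of the factor that binds promoters of transfer RNA genes, had 65.3 ± 4.63 array medians in resistant and 35.3 ± 2.43 in parental cells (log2 difference 0.89, adjusted p = 0.083), and SNAPC3, of the complex that binds promoters such as that of RPPH1, had 13.1 ± 2.88 in resistant and 6.36 ± 1.23 in parental cells (log2 difference 1.05, adjusted p = 0.109). These too were chosen after their values were seen.
The proteins of H/ACA particles (8 tested), of C/D particles (12), of the nuclear exosome (19), of nonsense-mediated decay (8) and of paraspeckles and speckles (13) had median log2 differences of 0.08, 0.11, 0.16, -0.02 and 0.06. None of these 60 genes was called by limma, with 2 higher and 4 lower at an unadjusted p under 0.05. Of 11 tested long noncoding transcripts outside the 9 genes, 2 had a log2 difference above 0, against 6075 of all 11810 genes. Their median was -0.82, and none was called. At an unadjusted p under 0.05, 2 were higher and 4 lower, against 1185 and 1177 of all genes. The resistant arrays lay below the parental arrays for 7 and above them for 2, against 1673 and 1898 of all genes. The largest difference was that of MEG3, an imprinted RNA of the chromosome 14 cluster that also holds SNORD114-3, at 1.11 ± 0.307 array medians in resistant and 19.3 ± 14.8 in parental cells (log2 difference -3.53, adjusted p = 0.115). MEG3 was chosen after its values were seen.

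Genes whose levels followed those of RPPH1 and MALAT1 most closely over the 6 arrays were named by the highest Pearson r of log2 levels among 22311 tested probe sets with 1 gene. For RPPH1 these were NOSTRIN (0.992), SLC4A7 (0.989), PTGER3 (0.989), RFX7 (0.989) and ACP6 (0.988), and 115 probe sets had an r over 0.95. NOSTRIN had 19.2, 19.5 and 16.8 array medians in resistant arrays 1 to 3, against 10.9, 10.9 and 12.5 in parental arrays 1 to 3, so that the resistant arrays lay above the parental arrays and replicate 3 lay low in resistant and high in parental cells, as for RPPH1, over a far narrower range. For MALAT1 (1558678_s_at) they were NDUFB2-AS1 (0.993), NR3C1 (0.986), LAMTOR2 (0.984), TMEM174 (0.979) and NCAPH2 (0.976), and 31 probe sets had an r over 0.95. NR3C1, the glucocorticoid receptor, had 2.72, 3.78 and 1.33 in resistant arrays, against 4.34, 1.97 and 1.87 in parental arrays. With 6 arrays in 2 groups, such values describe the shape of the profile across these arrays.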

How the data were processed

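Signals of 3 resistant and 3 parental K562 arrays were used. The authors had made them with MAS5 (version not given), and the deposited numbers were linear intensities without detection calls. Each was divided by its array median, values under 0.01 were set to 0.01 and log2 was taken. Platform annotation named 1 gene for 41097 probe sets, several for 1801 and none for 11777, and 21304 of 21359 gene IDs were updated through RefSeq (GRCh38.p14). The 62 AFFX controls and probe sets with a mean level under 1 were left out, and 26692 were tested with limma 3.58.1 (lmFit and eBayes, two-sided, R 4.3.3) and Benjamini-Hochberg adjustment. A call needed an adjusted p under 0.05 and at least 2-fold. Errors of levels are SDs over arrays. The fit was tested on simulated data. Precision is limited by the number of arrays.

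The 9 genes and the gene lists were chosen with earlier results of these data known. Named were all probe sets of the 9 genes, the rRNA, ACTB and GAPDH controls, small RNAs with a tested probe set, SNHG genes, DANCR and ZFAS1, up to 4 called genes per further list, and the 5 genes closest in profile to RPPH1 and to MALAT1. RPP25, POP4, GTF3C3, SNAPC3 and MEG3 were added after their values were seen. Alternatives tried were the deposited values unscaled, quantile normalization, division by the 75th percentile or by 18S controls, no filter or a filter at 2, pseudocounts of 0.25 and 1, a trended robust prior, the unpaired test of the methods, a replicate block, and single arrays left out. In a further one, chosen after seeing the data, parental 1 and resistant 3 were both left out.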

Additional observations from a re-analysis of the deposited data

Results flagged for a closer look

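Ribosomal RNA controls, which took no part in the test, were high in resistant arrays at some control probe sets and not on every array. The 18S 5′ control averaged 83.3 array medians in resistant and 4.47 in parental arrays, and the 18S middle control 45.7 in resistant and 4.53 in parental arrays, each with 2 resistant arrays more than 2-fold above the highest parental array. The 28S 3′ control averaged 4.44 in resistant and 0.307 in parental arrays, with 3 such arrays. The 18S 5′ control of resistant 1 lay within 2-fold of the parental arrays, and the 18S 3′, 28S 5′ and 28S middle controls overlapped between the groups, with resistant 3 at 42.5 for the first of these. The part of this signal in the differences of the small RNAs was not tested.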

How the results depend on the processing

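Counts of calls depended on the processing and on single arrays. Each setting is given as probe sets called higher and lower over all probe sets, then list genes called higher and lower, then probe sets of the 9 genes called higher. With all arrays and the stated settings these were 319 and 303, 3 and 1, and 5. Without parental 1 and resistant 3 they were 526 and 488, 3 and 2, and 9. With a trended robust prior they were 563 and 570, 9 and 2, and 5, with a filter at 2 array medians 465 and 445, 5 and 2, and 5, and without a filter 97 and 77, 0 and 0, and 1. With 0.25 array medians added they were 462 and 455, 6 and 3, and 5, and with 1 added 599 and 592, 10 and 3, and 5. With the trended prior, the filter at 2 and both pseudocounts, 1 probe set of the 9 genes was called lower, NEAT1 225239_at. Quantile normalization gave 359 and 341, 2 and 2, and 4, the 75th percentile 346 and 352, 5 and 2, and 4, and the values as deposited 205 and 317, 0 and 1, and 4, with 39.3% of calls higher against 51.3%. The unpaired test of the methods with Benjamini-Hochberg adjustment gave 82 and 44, 1 and 0, and 0.

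With the replicate number as a block, the counts were 133 and 136, 1 and 0, and 1, the last being SNORA71A 1565859_at. Deviations of same-numbered arrays over all tested probe sets correlated at -0.01, -0.03 and -0.01. Such values cannot show whether same-numbered arrays shared a step that touched few probe sets. Without single arrays, the counts ran from 103 to 633 higher and 79 to 447 lower over all probe sets, from 0 to 5 and 0 to 2 for list genes, and from 1 to 4 for the 9 genes. The log2 differences of RPPH1, SCARNA2 and SNORA71A (1565859_at) were above 0 in every setting, though their arrays overlapped on the 18S scale. Those of GAS5, SNHG1, SNHG5 and SNHG12, by the probe set with the highest level, were above 0 in every setting but scaling to 18S (-1.27, -1.56, -1.47 and -1.72, beside the shift of -2.13 of all probe sets). Those of MALAT1 and NEAT1 by that rule changed sign without single arrays (-0.52 to 0.43 and -0.65 to 0.41). Levels below the array median lie in background, which limits every fold against parental RPPH1, SCARNA2, SNORA71A and SNORA74A and that of resistant SNORD114-3. The cause of the changes was not tested.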
